A study of Mus musculus with 12 samples.

Results

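The EGF family is a set of secreted growth factors and the ErbB receptor tyrosine kinases they bind. Its members were taken as the probe sets whose RefSeq accession maps to 1 of 12 mouse genes, the ligands Hbegf, Areg, Ereg, Btc, Tgfa, Epgn, Egf and Nrg1 and the receptors Egfr, Erbb2, Erbb3 and Erbb4. Of these 12 genes, 6 were found among the 909 named genes of the table, on 7 of its 1246 probe sets: Hbegf, Areg and Btc among the ligands and Egfr (2 probe sets), Erbb3 and Erbb4 among the receptors. The other 6 genes are not analysed here. The samples came from mouse skin labelled B6 in the titles, and fell into 5 groups by the time since wounding. There were 4 non-wounded samples, a single sample for each of 0 h and 4 h, 2 for 30 min and 4 for 2 h. The labels name the cells as dendritic epidermal T cells, whereas the design text describes RNA of the whole epidermis, which is mostly keratinocytes. No label gives the age or the number of the mice. Values are RMA expression values on a log2 scale, so a difference of 1 is a 2-fold difference, and they carry no call of presence or absence.

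EGF family ligands are made as membrane proteins, and proteases of the ADAM family cut them loose at the cell surface. The freed ligand binds EGFR, ErbB3 or ErbB4 on the same cell or a neighbour, and the receptors signal in pairs, often with ErbB2. Hbegf and Areg also bind heparin and heparan sulfate chains, and Btc binds both EGFR and ErbB4. In skin, EGFR is carried by keratinocytes, whose migration and division after injury are known to depend on these ligands.

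The bases before the transcription start of Areg and Btc, neighbouring ligand genes on chromosome 5, are shown because the first changed after wounding in 1 of 2 fits and the second in neither. They are the 250 bases before each RefSeq start site in GRCm38.p6, 5′ to 3′ on the gene's strand, and capitals mark matches to TGACG, the core of a cyclic AMP response element, on either strand. The windows are chr5:91139349-91139598 on the plus strand for Areg and chr5:91402995-91403244 on the minus strand for Btc.
Areg: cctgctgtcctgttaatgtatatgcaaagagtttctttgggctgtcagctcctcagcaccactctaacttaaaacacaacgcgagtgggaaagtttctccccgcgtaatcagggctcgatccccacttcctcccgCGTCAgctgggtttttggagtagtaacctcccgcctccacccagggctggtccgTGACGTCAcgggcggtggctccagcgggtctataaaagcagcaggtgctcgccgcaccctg
Btc: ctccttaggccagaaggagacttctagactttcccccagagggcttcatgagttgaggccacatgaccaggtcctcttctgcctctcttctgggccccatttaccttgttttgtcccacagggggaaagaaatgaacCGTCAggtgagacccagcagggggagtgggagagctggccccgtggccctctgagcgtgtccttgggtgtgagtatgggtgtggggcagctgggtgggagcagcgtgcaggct
In Areg 2 matches overlap on opposite strands and together span positions -61 to -54, counted back from -1 at the base before the start. A further match lies at -115 to -111, and Btc has 1, at -113 to -109. Of the 32851 promoter windows of this length in the table, 17.8% hold TGACG on either strand, and the share holding TGACGTCA was not counted. The AP-1 motif TGANTCA, held by 6.75% of them, has no match in either window. Windows were given for 4 of the 6 measured genes and were missing for Hbegf and Erbb3. The windows of Egfr and Erbb4 hold no match to either motif. A match describes the letters only.

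Every group has a sample numbered 1, and these 5 were unlike the remaining 7, numbered 2 to 4. The SD over all probe sets ran from 1.55 to 1.85 for number 1 and from 2.19 to 2.30 for the others. The first principal component separated the 2 sets and held 66.9% of the variance. The samples at 0 h and 4 h are both of this kind. The keratinocyte galectin Lgals7 had a mean log2 value of 12.03 ± 0.51 in 2 h and 12.08 ± 0.27 in non-wounded samples (SD, n = 4 each). Of 12 listed markers of dendritic epidermal T cells 5 were measured, with means from 2.33 (Klrk1, the activating receptor NKG2D) to 5.40 (Cd2) at 2 h and from 2.38 (Klrk1) to 5.09 (Il2rb) without wounding. The 4 measured keratinocyte markers had non-wounded means from 7.38 (Jag1) to 12.08 (Lgals7). Those of the 5 measured Langerhans cell markers ran from 3.44 (Ly75) to 10.78 (Cd74). Levels of different probe sets cannot be set against each other, so these values alone do not settle whether the RNA came from T cells or from whole epidermis. In bulk RNA, fewer cells of a type and less RNA per cell cannot be told apart.

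The comparison of 2 h with non-wounded samples asked which genes change early after injury. Of the 3 measured ligands Hbegf rose at 2 h, Areg rose in the fit that takes the replicate number into account, and Btc passed in neither fit. None of the 4 receptor probe sets passed in either fit. In the limma fit without the number 0.241% of the 1246 probe sets passed, all upward, and in the fit with it 1.36% passed, 1.12% upward and 0.241% downward. Against this background, 1 of the 7 member probe sets passed without the number and 2 with it. The members were chosen with earlier results of these data known, so these counts only describe them and do not test the family. Hbegf and Areg were also the 2 members with an unadjusted p under 0.05 without the number, as had 4.65% of the table.

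Hbegf, heparin-binding EGF-like growth factor, had log2 values of 6.39, 8.20, 7.80 and 8.77 in the 2 h samples numbered 1 to 4, against 4.53, 5.13, 4.56 and 4.22 in the non-wounded samples numbered 1 to 4. The groups did not overlap, and the lowest 2 h sample was the one numbered 1. All probe sets whose 2 h samples lay above all non-wounded samples made up 2.01% of the table, and Hbegf and Areg were the members among them, while none lay below, as 2.73% of the table did. The group means were 7.79 ± 1.01 at 2 h and 4.61 ± 0.38 without wounding (SD, n = 4 each), a fold change of 9.05 with a 95% interval of 2.12 to 4.23 on the log2 scale around 3.18 (limma adjusted p = 0.0376, and 0.00953 with the replicate block). An exact permutation test over the 8 samples, two-sided, gave p = 0.0286, the smallest it allows. It exchanges all samples freely; exchanging only within the 4 same-numbered pairs gave an exact p of 0.125 for Hbegf and for Areg, the smallest that design can give.

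The size of the Hbegf difference was not uniform among pairs of samples with the same number. The log2 difference was 1.86 between the samples numbered 1, or 3.64-fold. It was 3.07, 3.24 and 4.54 for numbers 2 to 4, so the pair numbered 4, at 23.3-fold, differed most and the pair numbered 1 least. Scaling all samples to a common median and SD brought the 4 differences closer, to 2.35, 2.72, 2.90 and 3.95. The call without the block was lost when any 1 of the 8 samples except 2 h replicate 1 was left out (adjusted p = 0.12 to 0.169), and when samples were centred on their medians (3.09, adjusted p = 0.124). With the block it was lost only without 2 h replicate 2 (adjusted p = 0.0572).

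Areg, amphiregulin, a ligand of EGFR, had log2 values of 3.52, 4.07, 4.47 and 4.98 in the 2 h samples numbered 1 to 4. Its values in the non-wounded samples were 2.88, 2.88, 2.76 and 2.96. Every 2 h sample lay above every non-wounded sample on the deposited values. After scaling to a common median and SD the groups overlapped, with 2 h replicate 1 at 3.19 and non-wounded replicate 4 at 3.30. The deposited non-wounded values were close together near the low end of the table, whose lowest value is 1.76. The means were 4.26 ± 0.62 at 2 h and 2.87 ± 0.08 without wounding (SD, n = 4 each), which is 2.62-fold. All 4 non-wounded values lay under the 25 percentile of mean level over the table, 3.20. With no detection call in the table, it is not known whether this baseline is above background, and the fold depends on it. The log2 fold change was 1.39 ± 0.28 (SE), with an adjusted p of 0.087 by limma without the block and 0.0297 with it, and the exact permutation test, two-sided over 8 samples, gave p = 0.0286.

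Within same-numbered pairs Areg was higher at 2 h by 0.64, 1.19, 1.71 and 2.02 on the log2 scale for numbers 1 to 4. As for Hbegf, the smallest difference was in the pair numbered 1 and the largest in the pair numbered 4. All 4 pairs were higher at 2 h for these 2 members, which held for 13.4% of all probe sets. In the samples numbered 2 to 4 alone Areg passed (1.64, limma adjusted p = 0.015). With the block and 1 sample left out it passed only without non-wounded replicate 1 or 2 h replicate 1 (adjusted p = 0.0257 and 0.0088) and missed without each of the other 6 (0.0533 to 0.164).

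**Figure D1:**
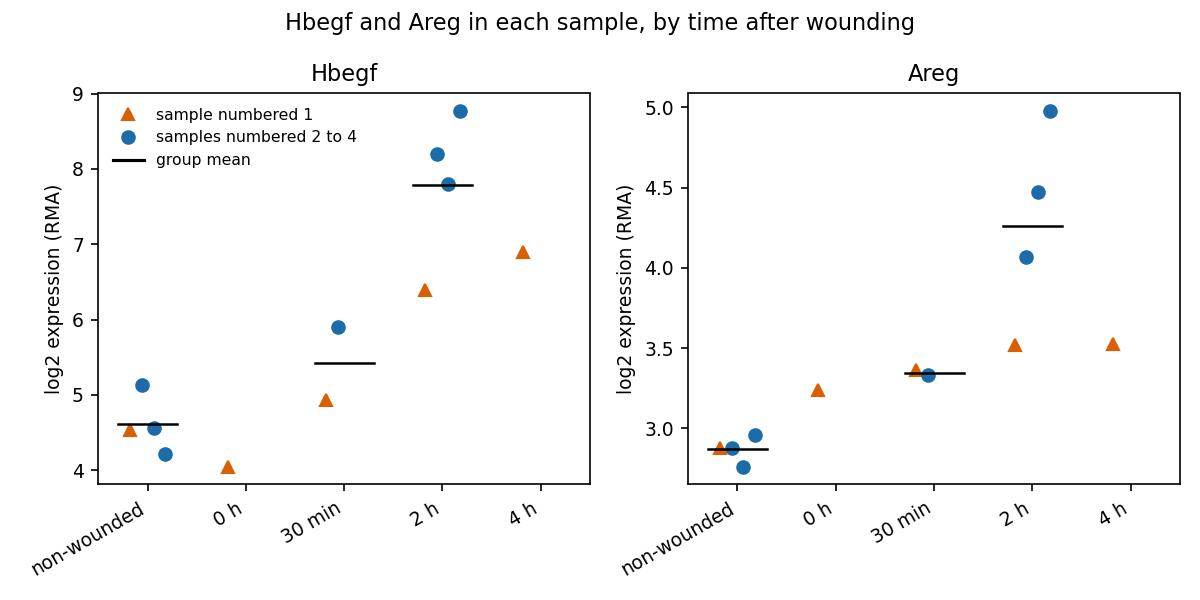
Log2 expression of Hbegf and Areg in each of the 12 samples by group, with triangles for the samples numbered 1, circles for those numbered 2 to 4 and lines for the means of groups with more than 1 sample. The 2 h samples of Hbegf sit between 6.39 and 8.77 and those of Areg between 3.52 and 4.98, all above the non-wounded samples.

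Btc, betacellulin, had log2 values of 4.86, 6.33, 6.25 and 6.11 at 2 h and 5.36, 6.75, 5.80 and 6.28 in non-wounded samples, in the order of the numbers. The groups overlapped, and the sample numbered 1 was the lowest of each. The difference was -0.16 on the log2 scale, with a 95% interval of -1.13 to 0.81 that narrowed to -0.56 to 0.25 with the block (limma adjusted p = 0.998 and 0.747). Of the 4 same-numbered pairs, 3 were lower at 2 h and 1, number 3, was higher by 0.45. Both Btc intervals end below the lower bound of Hbegf, and the difference between the genes was not tested.

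Egfr, the receptor for all 3 measured ligands, was read by 2 probe sets with different ranges. On the brighter, NM_207655.2_psr1_at, values were 4.80, 7.98, 7.53 and 7.56 at 2 h and 5.63, 7.60, 8.04 and 7.84 in non-wounded samples. The 2 samples numbered 1 were lower than the other 6, and the rest lay within about the same span in both groups. The difference was -0.31, with an interval of -2.03 to 1.40, or -0.91 to 0.29 with the block (adjusted p = 0.998 and 0.657). On NM_007912.4_psr1_at values ran from 4.54 to 4.75 at 2 h and from 4.47 to 5.02 without wounding, and the difference was -0.07 (interval -0.43 to 0.28, limma adjusted p = 0.998). Both probe sets therefore overlapped between groups, although the drop in the samples numbered 1 appeared mainly on the brighter one.

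Erbb3, a receptor that binds neuregulins and depends on its partners for kinase activity, had values of 4.46, 4.24, 4.36 and 4.16 at 2 h and 4.77, 4.18, 4.20 and 4.59 without wounding. The difference was -0.13 (interval -0.58 to 0.32, limma adjusted p = 0.998). The 2 h values lay within the non-wounded range except for the lowest. Erbb4, a receptor for Btc, Hbegf and neuregulins, ran from 2.91 to 3.13 at 2 h and from 2.76 to 3.19 in non-wounded samples, with a difference of 0.06 (interval -0.36 to 0.47, adjusted p = 0.998). Its mean over all samples, 3.03, was the only one of the 7 members' under the 25 percentile of the table, 3.20. A change of 1 or more on the log2 scale lay outside these intervals for both receptors and for the dimmer Egfr probe set, and inside the interval without the block for Btc and the brighter Egfr probe set.

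**Figure D2:**
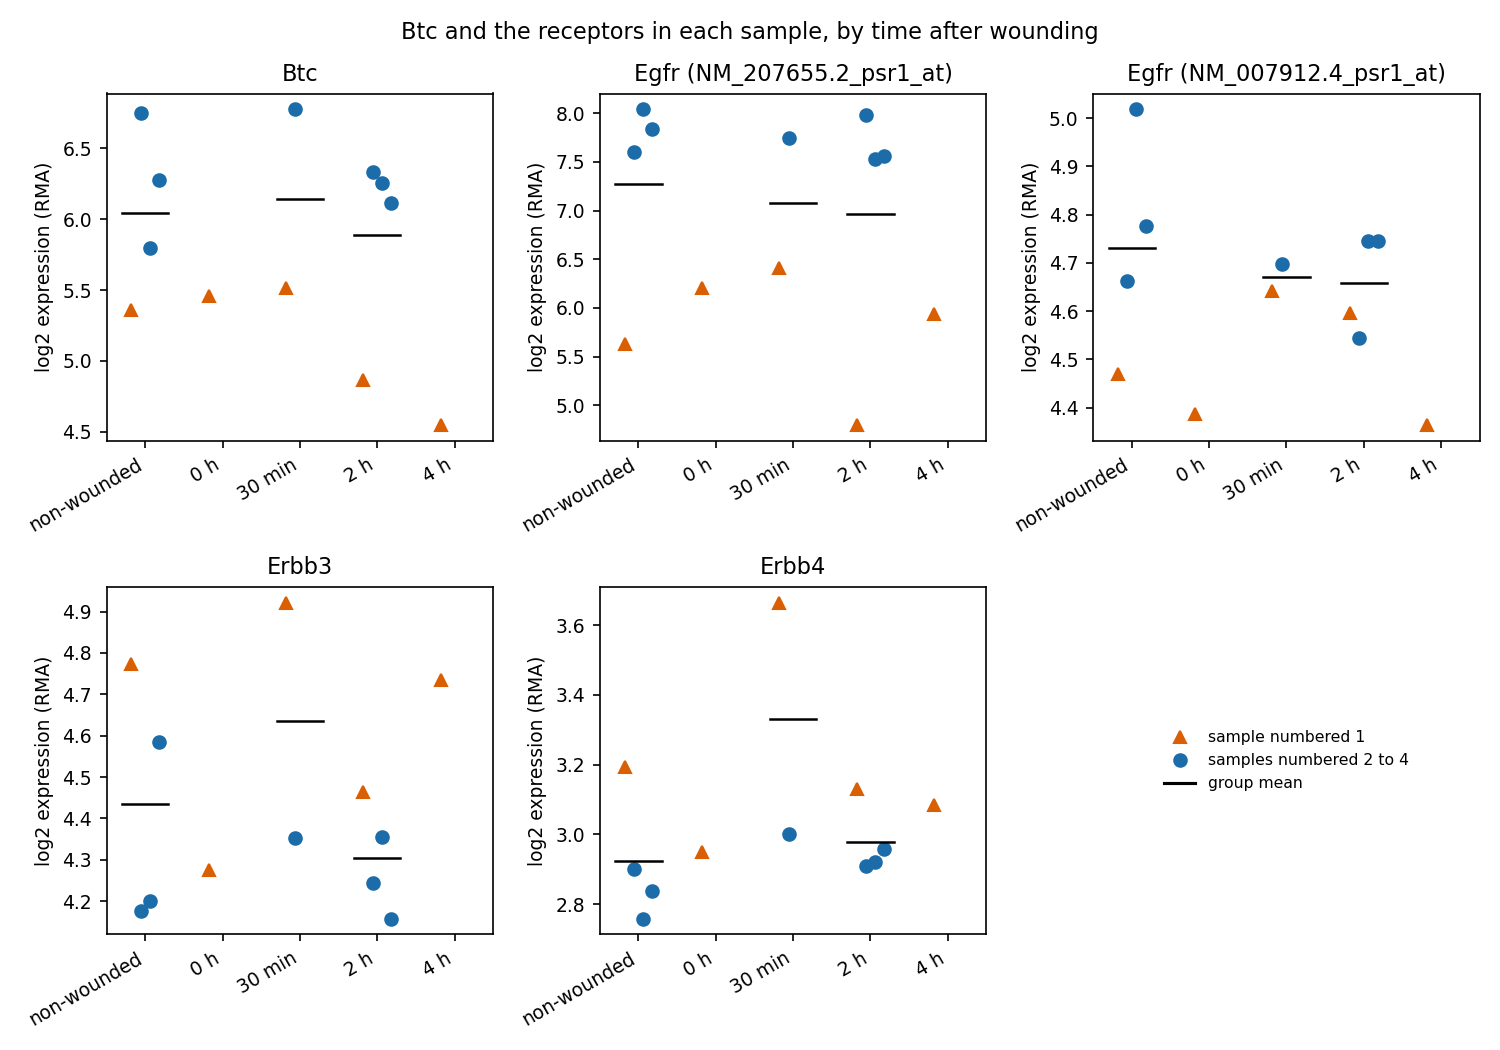
Log2 expression of Btc, the 2 Egfr probe sets, Erbb3 and Erbb4 in each of the 12 samples by group, marked as for Hbegf and Areg. The samples numbered 1 are low for Btc and the brighter Egfr probe set in every group of more than 1 sample, and the 2 h and non-wounded groups overlap in every panel.

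**Figure D3:**
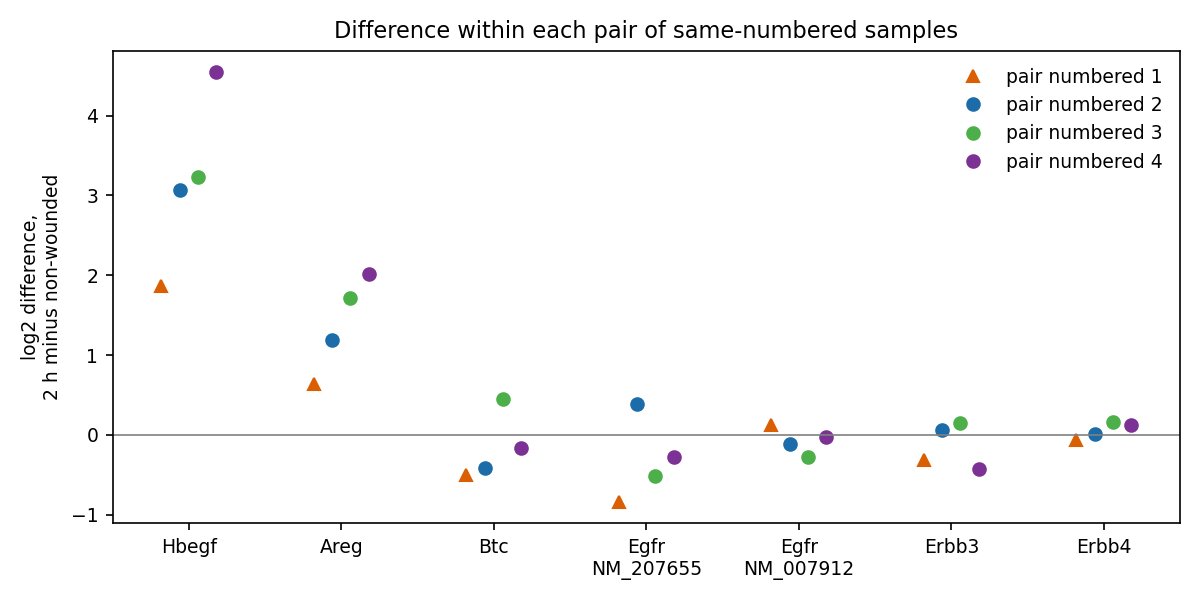
Log2 difference, 2 h minus non-wounded, within each of the 4 pairs of same-numbered samples, for the 7 probe sets. All 4 pairs lie above 0 for Hbegf and Areg, and pairs lie on both sides of 0 for the other 5.

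**Figure D4:**
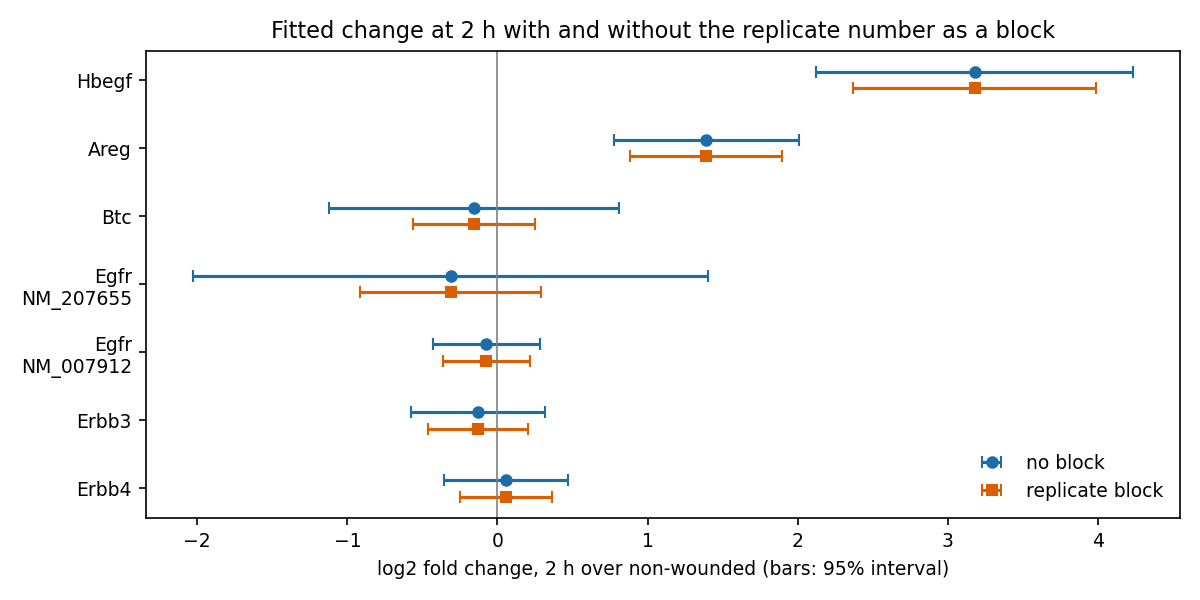
Fitted log2 fold change, 2 h over non-wounded, with 95% intervals, without (circles) and with (squares) the replicate number as a block. Hbegf at 3.18 and Areg at 1.39 have intervals above 0 in both fits, and the other 5 intervals include 0. The intervals are for single probe sets and not adjusted.

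At 30 min after wounding no member passed, and no probe set of the table did (0.0% called by limma with or without the block; 63 and 136 probe sets, 5.06% and 10.9%, had an unadjusted p under 0.05, among them no member and Areg). Hbegf was at 4.93 and 5.91 in the 30 min samples numbered 1 and 2, against the 4 non-wounded values above, whose highest was 5.13. The difference from the non-wounded mean was 0.81 ± 0.58 on the log2 scale (SE, limma adjusted p = 0.737), and the same-numbered pairs differed by 0.40 and 0.78. Areg was at 3.36 and 3.33, both above the highest non-wounded value of 2.96. It was the only member whose 30 min samples lay above all non-wounded samples, as 2.49% of all probe sets did, and no member lay below them, as 5.14% did. The Areg difference was 0.48 ± 0.34 (SE, limma adjusted p = 0.737), or 0.22 once samples were scaled to a common median and SD. After that scaling the 30 min sample numbered 1, at 2.94, lay within the non-wounded range of Areg. An exact permutation test of 2 against 4 samples cannot go below 0.0667, the value it gave for Areg.

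The other members at 30 min lay close to the non-wounded samples or moved with the sample numbered 1. Btc was at 5.51 and 6.78, and its difference from non-wounded samples was 0.10 ± 0.53 (limma adjusted p = 0.948). The brighter Egfr probe set was at 6.41 and 7.74, and its difference was -0.20, or 0.42 with the block, so its sign depended on the fit (adjusted p = 0.939 and 0.631). Erbb3 was at 4.92 and 4.35, and Erbb4 at 3.66 and 3.00. In both receptors the sample numbered 1 was above all non-wounded samples and the sample numbered 2 was within their range. The difference was 0.20 ± 0.24 for Erbb3 and 0.41 ± 0.23 for Erbb4 (SE; adjusted p = 0.776 and 0.735).

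Set directly against 30 min, the 2 h samples were higher for both Hbegf and Areg, and no probe set of the table passed (0.0% by limma in either fit; 27 and 67, 2.17% and 5.38%, had an unadjusted p under 0.05, Hbegf and Areg among both). The difference was 2.37 ± 0.58 for Hbegf (SE, adjusted p = 0.475) and 0.91 ± 0.34 for Areg (0.98). For both genes all 4 samples at 2 h lay above both samples at 30 min, as for 3.77% of probe sets, and no member lay wholly below, as 1.69% did. On scaled values the Areg groups overlapped, with 2 h replicate 1 at 3.19 and 30 min replicate 2 at 3.51. For Hbegf the difference did not pass under 14 of the alternatives tried. It passed without 2 h replicate 1 (2.83, adjusted p = 0.0093) and after repeated quantile normalization (2.24, 0.0244). Within the pairs numbered 1 and 2 it was 1.46 and 2.29 for Hbegf, and 0.16 and 0.74 for Areg. These 2 comparisons with 2 h share the 2 h samples.

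The samples numbered 1 give 1 sample for every group, including 0 h and 4 h, which have no replicate and no test. In order of time, Hbegf was at 4.53 in the non-wounded sample, 4.05 at 0 h, 4.93 after 30 min, 6.39 after 2 h and 6.90 after 4 h. The 0 h value lay below all 4 non-wounded samples and the 4 h value above them, 2.29 above their mean and 2.37 above the non-wounded sample numbered 1. On values scaled to a common median and SD the 4 h difference from the mean was 2.85. The 4 h sample was 0.51 above the 2 h sample of the same number and within the range of the 4 samples at 2 h.

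Areg in the same 5 samples was at 2.88, 3.24, 3.36, 3.52 and 3.52, from non-wounded to 4 h. The 0 h value was already above the 4 non-wounded samples, by 0.37 from their mean, and the 4 h value was 0.66 above that mean. After the scaling these differences were 0.07 and 0.15, and both values lay within the non-wounded range, so the place of Areg at 0 h and 4 h depended on the scale of the samples.

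**Figure D5:**
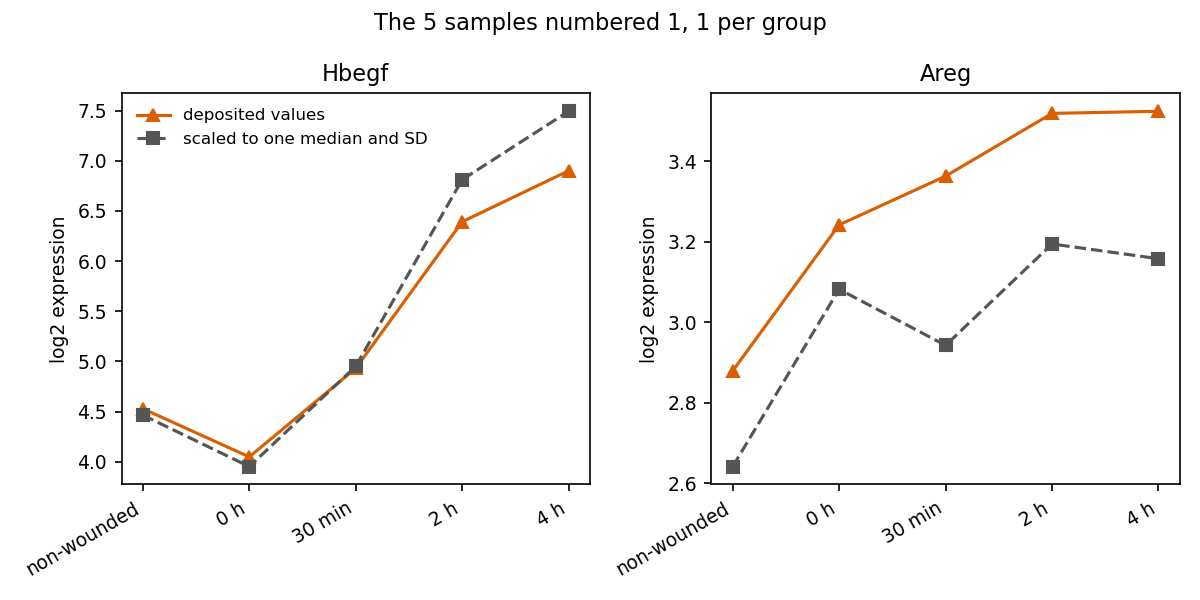
Log2 expression of Hbegf and Areg in the 5 samples numbered 1, from non-wounded to 4 h, as deposited (triangles) and after scaling to a common median and SD (squares). Hbegf ends at 6.90 as deposited and 7.49 scaled; Areg ends at 3.52 and 3.16.

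Of the members, Hbegf was the only one to lie 1 or more above the non-wounded mean and outside the non-wounded range at 4 h, as 6.18% of probe sets did, and Btc the only one to lie as far below it, as 17.3% did. Btc was at 4.55 at 4 h and 5.46 at 0 h. The differences from the non-wounded mean were -1.50 and -0.59, and those from the non-wounded sample numbered 1 were -0.81 and 0.10. No member passed these limits at 0 h, where 0.963% of probe sets were higher and 5.38% lower. The brighter Egfr probe set was at 6.21 at 0 h and 5.94 at 4 h, both within the non-wounded range, and the dimmer one at 4.39 and 4.36, both below it. Erbb3 was at 4.28 and 4.73 and Erbb4 at 2.95 and 3.08, also within it. On scaled values Erbb3 at 0 h and Erbb4 at both times lay below the non-wounded range, by -0.30, -0.31 and -0.48 from its mean.

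Genes around the ligands were counted by role, each by its brightest probe set. One list held 33 genes taken as immediate early genes or as possible targets of EGFR signalling, and was chosen with earlier results of these data known. Of these 11 were measured and 10 were higher at 2 h, with a median difference of 1.40. Over all probe sets 54.5% were higher, with a median of 0.03. Whether EGFR signalling had a part in the levels of these 11 genes was not tested. Without the block 1 of the 11 rose, against 0.241% of the table: Ccl20, a chemokine that draws CCR6-bearing cells (log2 4.09 ± 0.65, SE, limma adjusted p = 0.0412). With it 6 rose, against 1.12% of the table: Ccl20, the adhesion molecule Icam1 (2.56, adjusted p = 0.0114), the growth factor for vessels Vegfa (1.23, 0.0265), the neutrophil chemokines Cxcl2 (3.13, 0.0297) and Cxcl1 (2.40, 0.0463), and the AP-1 subunit Junb (1.74, 0.0448). The 1 lower gene, named after its value was seen, was Il1a, at -0.41 (limma adjusted p = 0.998, and 0.246 with the block). At 30 min 9 of the 11 were higher, with a median of 0.19, against 53.8% and 0.04 over all probe sets, and none passed.

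Of 13 carriers of heparan sulfate, to which Hbegf and Areg bind, 12 were measured, with 7 higher and 5 lower at 2 h, a median of 0.0095 and no gene passing. Sdc1, the main syndecan of keratinocytes and also on the keratinocyte marker list, averaged 8.45 ± 0.87 at 2 h and 8.99 ± 0.42 without wounding (SD, n = 4 each), a difference of -0.54 (limma adjusted p = 0.998), and Sdc2 differed by -0.36 (0.998). Of 25 enzymes that make or edit the chains, 24 were measured, with 10 higher, 14 lower, a median of -0.01 and again no gene passing. The sulfotransferase Hs3st6 was at -1.05 (adjusted p = 0.707, and 0.174 with the block) and Hs3st1 at 0.86 (0.852 and 0.282).

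Of 16 proteases and surface partners of the ligands 1 was measured, the hyaluronan receptor Cd44, at 8.77 ± 1.53 in 2 h and 7.76 ± 1.62 in non-wounded samples (limma adjusted p = 0.998, and 0.122 with the block). Of 10 enzymes that add O-linked sugars to EGF repeats 5 were measured, 1 higher and 4 lower, with a median of -0.25. Pofut1, which adds fucose to such repeats, was at -0.58 (0.998) and the fringe enzyme Lfng at -0.25 (0.998). None of the 19 listed inhibitors of EGFR signalling was measured.

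Across the 7 samples numbered 2 to 4, the 5 named genes whose values ran most like those of Hbegf, among 49 candidates with an SD of 0.5 or more, were Vegfa (Pearson correlation 0.978), Ccl20 (0.968), Areg (0.956), Uap1 (0.953) and Cxcl2 (0.953). For Areg they included Csf2rb (0.981), Icam1 (0.979), Uap1 (0.970) and Ccl20 (0.965). These correlations are descriptions. The 7 points are 3 samples at 2 h, 1 at 30 min and 3 without wounding, so any gene that differs between the 2 larger groups correlates with both ligands. Over all 12 samples the correlations with Hbegf were 0.939 (Vegfa), 0.958 (Ccl20), 0.907 (Areg), 0.796 (Uap1) and 0.910 (Cxcl2). Those with Areg were 0.787 (Csf2rb), 0.945 (Icam1), 0.720 (Uap1) and 0.901 (Ccl20).

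Markers of the cells that epidermis or a wound can hold were measured beside these results. Over all probe sets 54.5% were higher at 2 h than without wounding. All 4 measured keratinocyte markers were lower at 2 h, with a summed level on the linear scale of 2858 to 6877 at 2 h and 4489 to 7189 without wounding, and none passed. All 4 measured neutrophil markers were higher, with summed levels of 427 to 1435 and 310.1 to 1286. Of 8 dermal fibroblast markers 7 were higher (125 to 148 and 98.3 to 131), and of 5 T cell markers 4 were higher (101 to 156 at 2 h and 77.3 to 105 without wounding). All 4 measured endothelial markers were higher (34.5 to 50.3 and 31.3 to 43.2), and so were 2 of 4 markers of monocytes and macrophages (124 to 253 and 170 to 275). Of 5 Langerhans cell markers 3 were higher (1092 to 3071 and 1457 to 2842), and 1 of them, Cd207, passed with the block (mean 8.77 ± 0.74 at 2 h and 7.86 ± 0.63 without wounding). Their part in the Hbegf and Areg differences was not tested.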

How the data were processed

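Per the labels' protocols, RNA was isolated with Trizol and biotinylated cRNA was made from it for Affymetrix arrays. The authors' deposited values are RMA values on a log2 scale; RMA is named in the submitters' processing notes, the log2 scale follows from the values (1.76 to 13.3), and no array name or software version was found in the labels. Arrays carry no depth, so their number limits the precision.

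Probe set accessions were matched without version to RefSeq (GRCm38.p6), used for names and promoters: of 1246 probe sets 963 matched 1 symbol, 0 several and 283 none. Groups and replicate numbers came from the titles, and nothing states that replicates are different mice, so the p-values reflect only how these samples vary, in part perhaps technically. For the main test a group-means model without covariates was fitted to the 12 samples with limma 3.58.1 (R 4.3.3). P-values were adjusted by Benjamini-Hochberg across the 1246 probe sets, and 0.05 was the threshold. The alternative with the replicate number as a block stands beside results it changes. It was kept because same-numbered 2 h and non-wounded samples deviated together (correlations of 0.796, 0.449, 0.651 and 0.297 for numbers 1 to 4, all above 0.1). Deviations were taken from group means that include the sample numbered 1, so the split between number 1 and the rest can by itself make these correlations positive. Correlations between samples of different numbers were not computed, so the values given cannot show pairing beyond that split. Other alternatives were a random block, repeated quantile normalization, median centring, scaling to one median and SD, a filter at the 25 percentile of mean level, a robust prior with an intensity trend, array weights, only the groups compared, the samples numbered 2 to 4 alone, a log2 change of 1 or more, the mean of the Egfr probe sets and leaving out each sample. The block with scaling, the block with a sample left out and the permutation within pairs were added after the data were seen. Members and lists were chosen with earlier results of these data known. Text names every member, the called genes of each list (or the 2 with the smallest p at 2 h) and the 5 genes most correlated with Hbegf and Areg, of which 1 is not reported here; Il1a and the cell type markers named were picked after their values were seen. Plots used matplotlib 3.10.9 (Python 3.11.15).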

Additional observations from a re-analysis of the deposited data

Results flagged for a closer look

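In groups of 4 samples, the lowest or highest sample was compared with its neighbour by the gap between them as a share of the group's range, against the critical value of Dixon's test at 95%. Of 14 groups tested (7 probe sets, 2 h and non-wounded), 2 held a sample past it, and chance marks about 1 in 20 groups. In both it was the 2 h sample numbered 1. Btc was at 4.86 there, with a gap of 0.852 of the range, and the brighter Egfr probe set, NM_207655.2_psr1_at, was at 4.80, with a gap of 0.857. Both are bright in the other 3 samples at 2 h, where Btc lay between 6.11 and 6.33 and this Egfr probe set between 7.53 and 7.98. The sample also has one of the narrower spreads of values over all probe sets, with an SD of 1.59, and the part of this in the low values was not tested.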

How the results depend on the processing

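Chosen after the data were seen were the block with scaling, the block with a sample left out and the permutation within same-numbered pairs. The cause of each change below was not tested. At 2 h the 3 calls became 17 with the replicate block (14 higher, 3 lower), 15 with a random block, 7 after repeated quantile normalization, 0 after median centring (limma; 70 at an unadjusted p under 0.05), 8 with an intensity trend and robust prior, 130 with array weights (60 higher, 70 lower), 38 over numbers 2 to 4 and 10 with the block and scaling. Leaving out 1 sample gave 0 to 11 without the block and 0 to 17 with it (13 without 2 h replicate 1). At 30 min the 0 calls became 0 to 74 with 1 sample left out, 74 without 30 min replicate 2. For 2 h against 30 min the 0 calls became 1 with the random block, 2 after quantile normalization, 1 after scaling, 2 in the samples numbered 2 to 4 and 0 to 9 with 1 sample left out, 9 without 2 h replicate 1. Without either 30 min sample, or over numbers 2 to 4, the 30 min group is 1 sample, assumed to vary like the other groups.

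Areg at 2 h passed with the replicate block (1.39, limma adjusted p = 0.0297), the random block (1.39, 0.00746), the intensity trend (1.39, 0.0365), array weights (1.59, 3.89e-04), the samples numbered 2 to 4 (1.64, 0.015) and the block with scaling (1.17, 0.042), and the exact permutation p was 0.0286. It missed after quantile normalization, centring and scaling without the block (adjusted p = 0.277, 0.234 and 0.426). With 1 sample left out it ran from 1.15 to 1.64 without the block, passing only without 2 h replicate 1 (adjusted p = 0.00426), and from 1.18 to 1.62 with it, at 1.57 without non-wounded replicate 1. Hbegf at 2 h missed after median centring (3.09, adjusted p = 0.124) and ran from 2.85 to 3.64 with 1 sample left out, or 2.72 to 3.56 with the block, missing there without 2 h replicate 2 (3.19, 0.0572). The exact permutation within same-numbered pairs cannot go below 0.125, its value for Hbegf (3.18) and Areg (1.39). Hbegf and Areg kept their direction under every alternative run.

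Signs near 0 turned. Erbb4 at 2 h was -0.047 after quantile normalization, -0.027 after centring, -0.092 after scaling and -0.092 with the block and scaling. Btc at 2 h was 0.24 with array weights. With 1 sample left out, Btc ran from -0.39 to 0.19 and the Egfr probe sets from -0.16 to 0.022 (NM_007912.4_psr1_at) and -0.86 to 0.41 (NM_207655.2_psr1_at). At 30 min NM_007912.4_psr1_at was 0.065 with the block and 0.031 with the random block, and NM_207655.2_psr1_at was 0.42 and 0.25, then 0.38 after quantile normalization and 0.12 after scaling. With 1 sample left out at 30 min these ran from -0.15 to 0.034 and -0.87 to 0.47, Btc from -0.53 to 0.73 and Erbb3 from -0.082 to 0.49. None of these passed a test. The block changed no other member's call.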
